A study of Mus musculus with 21 samples.

Results

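The genes described here are 7 genes that cells switch on in answer to interferon: Irf7, Isg15, Usp18, Ifit1, Ifit3, Oasl2 and Bst2. They were chosen by name, and each has a row in both deposited count tables, which list 33829 genes for the pre-treatment experiment, 55385 for the delayed experiment and 55592 genes together. All 7 passed the filter on low counts in both experiments. Of the 7, 6 carry a Gene Ontology term on interferon or on the answer to a virus in the tables' own annotation, and Usp18 carries none of these terms there. On GRCm38, Ifit3 (chr19:34583531-34588731) and Ifit1 (chr19:34640871-34650009) lie on the plus strand of the same chromosome, Oasl2 (chr5:114896936-114912234) and Usp18 (chr6:121245906-121270917) are also on the plus strand, and Isg15 (chr4:156199424-156200818), Irf7 (chr7:141262706-141266481) and Bst2 (chr8:71534255-71537456) lie on the minus strand.

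RNA-seq was performed on midbrain tissue from 21 male C57BL/6 mice, aged 6 weeks per the labels, in 7 groups of 3. In the pre-treatment experiment (9 mice), control mice received ddH2O for 10 days, the MPTP group received ddH2O for 5 days and then MPTP for 5 days, and the group pre-treated with irisin received irisin for 5 days and then MPTP for 5 days. In the delayed experiment (12 mice), control mice received ddH2O for 10 days, the irisin group ddH2O for 5 days and then irisin for 5 days, the MPTP group MPTP for 5 days and then ddH2O for 5 days, and the group with delayed irisin MPTP for 5 days and then irisin for 5 days. MPTP was given at 30 mg/kg and irisin at 200 µg/kg per day, and all injections were intraperitoneal, so the vehicle route is shared by every group. MPTP is a toxin whose product MPP+ enters dopaminergic neurons and blocks mitochondrial complex I, and irisin is a peptide that muscle releases during exercise. The mice were wild type, every mouse was male, 1 dose of each agent was used, and irisin without MPTP was present in the delayed experiment only. The MPTP mice of the pre-treatment experiment received MPTP last, whereas those of the delayed experiment received 5 days of ddH2O after it, so the 2 MPTP groups differ in the time since MPTP as well as in the experiment.

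Type I interferons bind the receptor pair Ifnar1 and Ifnar2, whose kinases Jak1 and Tyk2 activate transcription factors such as Stat2. Stat2 joins Irf9, and the complex they form binds a short DNA element, the interferon-stimulated response element (ISRE), in front of its target genes. In brain, microglia, astrocytes and endothelium carry these receptors, and interferon-stimulated genes serve as a common readout of viral infection, cell-free nucleic acids and inflammation. Among the 7 genes, Irf7 is the transcription factor that amplifies interferon production, Isg15 is a ubiquitin-like protein attached to other proteins, Usp18 removes Isg15 and blocks the receptor, and Ifit1, Ifit3, Oasl2 and Bst2 act against viruses.

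The ISRE core is printed here because it is the feature through which interferon is known to reach these genes. Promoter sequences from RefSeq (GRCm38, 250 bases before to 50 bases after the start of the transcript) held 6 of the 7 genes, and Usp18 was not among them. The letters GAAANNGAAA, searched on both strands with overlapping matches allowed, were found in 4 of these 6, against 1131 of 32851 mouse promoters of the same length (3.44%). Isg15 held 3 matches that run into each other (chr4:156200850-156200921, minus strand, the first 78 bases before the start), Bst2 held 2 that overlap (chr8:71537562-71537627, minus strand, the first 130 bases before the start), and Ifit1 held 2 apart from each other on the opposite strand (chr19:34640760-34640838, plus strand, the first 104 bases before the start). In these stretches, written 5′ to 3′ on the strand of the gene, capitals mark the matched letters.
Isg15: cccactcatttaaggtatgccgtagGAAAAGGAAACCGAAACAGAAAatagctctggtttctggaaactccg
Bst2: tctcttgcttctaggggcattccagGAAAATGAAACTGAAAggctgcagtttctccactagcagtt
Ifit1: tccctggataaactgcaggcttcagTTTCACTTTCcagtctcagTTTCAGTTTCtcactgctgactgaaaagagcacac
The promoter of Ifit3, on the same chromosome with a start 57340 bases from that of Ifit1, held the same pair of 10-base matches, TTTCACTTTC and TTTCAGTTTC, beginning 156 and 122 bases before its start. No match to these letters lay in the windows of Irf7 and Oasl2. These matches describe the letters of the reference and were not tested as binding sites.

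The 7 genes differed in level. Compared per transcript length, in FPKM (fragments per kilobase of transcript, scaled to library size), Ifit3 was the highest of the 7 in both experiments, at 8.54 ± 1.19 (SD, n = 9 mice) and 7.06 ± 0.68 (n = 12), and its lowest mouse stood above the highest mouse of every other member. Bst2 came next at 2.18 ± 0.33 and 2.98 ± 0.49, followed by Isg15 at 1.69 ± 0.53 and 1.84 ± 0.43. Bst2 and Isg15 overlapped between mice, although Bst2 was the higher of the pair in 8 of 9 and 11 of 12 mice. Oasl2 (1.01 ± 0.24 and 0.997 ± 0.125) and Ifit1 (1.002 ± 0.240 and 1.10 ± 0.18) did not differ beyond their spread, with Oasl2 the higher of the pair in 3 of 9 mice of the pre-treatment experiment and Ifit1 the higher in 10 of 12 mice of the delayed experiment. Usp18 (0.525 ± 0.133 and 0.575 ± 0.109) and Irf7 (0.409 ± 0.078 and 0.462 ± 0.074) were lowest. Among all tested genes, the mean FPKM of Ifit3 lay at the 78.4th and 73.6th percentile, that of Bst2 near the middle at the 50.6th and 55.7th, and those of the other members below, down to Irf7 at the 25.3rd and 26.8th.

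**Figure D1:**
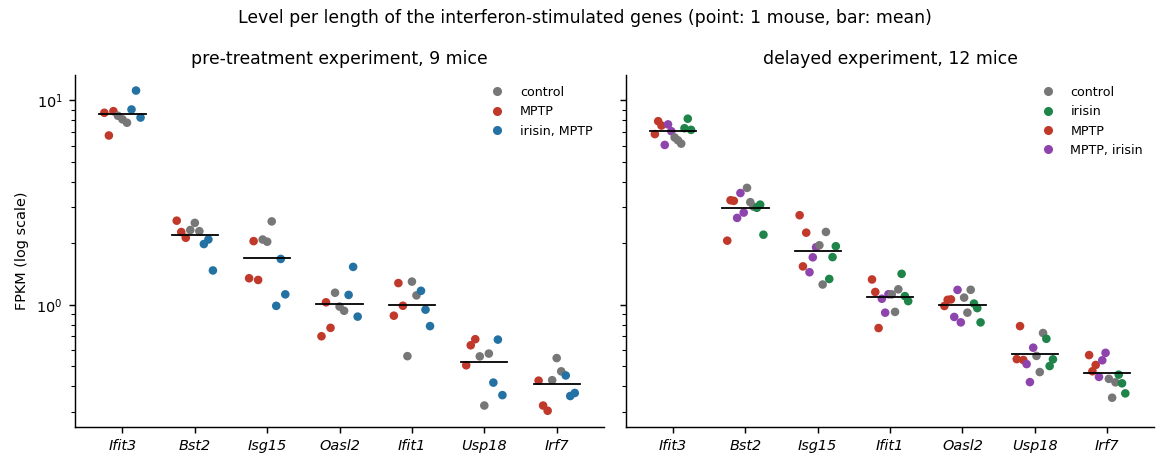
Level per transcript length (FPKM, log scale) of the 7 genes in the pre-treatment experiment (left, 9 mice) and the delayed experiment (right, 12 mice), ordered by mean. Each point is 1 mouse, coloured by group, and bars are means over all mice of the experiment. Ifit3 stands apart from the other members. Some groups do not overlap within a gene, such as control and irisin for Ifit3 in the delayed experiment.

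Total counts ranged from 66653781 to 75637604 per mouse in the pre-treatment experiment and from 48843585 to 77203445 in the delayed experiment, which left between 53 (Isg15) and 1613 (Ifit3) reads on a member in a mouse. Within groups the spread between mice (SD of log2 CPM, the count scaled to a library size shared by all mice) was 1.18 times (Irf7, delayed experiment) to 4.56 times (Oasl2 and Ifit3, pre-treatment experiment) what counting error alone gives. Markers of neurons, astrocytes, oligodendrocytes, microglia and endothelium were present in every mouse, as were those of dopaminergic neurons, of which 7 of 8 had a mean of at least 0.5 CPM. Summed choroid plexus markers were uneven within groups, from 27.3 to 50.2 CPM in 8 mice of the pre-treatment experiment and 1701 CPM in 1 MPTP mouse, and from 44.6 to 1692 CPM in the delayed experiment. Leaving out the 1 and 4 mice with a sum of 1000 CPM or more gave 0 members called in each comparison, a count that was 0 with all mice and that says nothing about stability, since 1 control mouse is left in the delayed experiment. In bulk tissue, fewer cells of a type and less RNA per cell cannot be told apart.

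None of the 7 genes passed an adjusted p of 0.05 in any of the 7 comparisons (edgeR quasi-likelihood test, Benjamini-Hochberg adjustment over all tested genes). The same count of 0 was obtained with DESeq2 and with limma on log2(FPKM + 1) and log2(FPKM + 0.1). Since edgeR called 0.00456% to 0.132% of all genes, a count of 0 among 7 genes says little about stability. At an unadjusted p under 0.05, 1 of the 49 member tests passed, that of Isg15 after irisin and MPTP against control. Of all tested genes, 3.9% to 8.97% passed at this threshold in a comparison, so a single pass is not set apart from them. The 95% confidence interval of the log2 fold change included 0 in 48 of the 49 tests, and its outermost bounds were −1.43 (Isg15, the test just named) and 1.05 (Bst2, interaction), the first of which corresponds to a 2.70-fold change. In 37 of the 42 tests between 2 groups both bounds were within 1 log2 unit. These intervals bound the changes and do not show that the groups were alike.

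**Figure D2:**
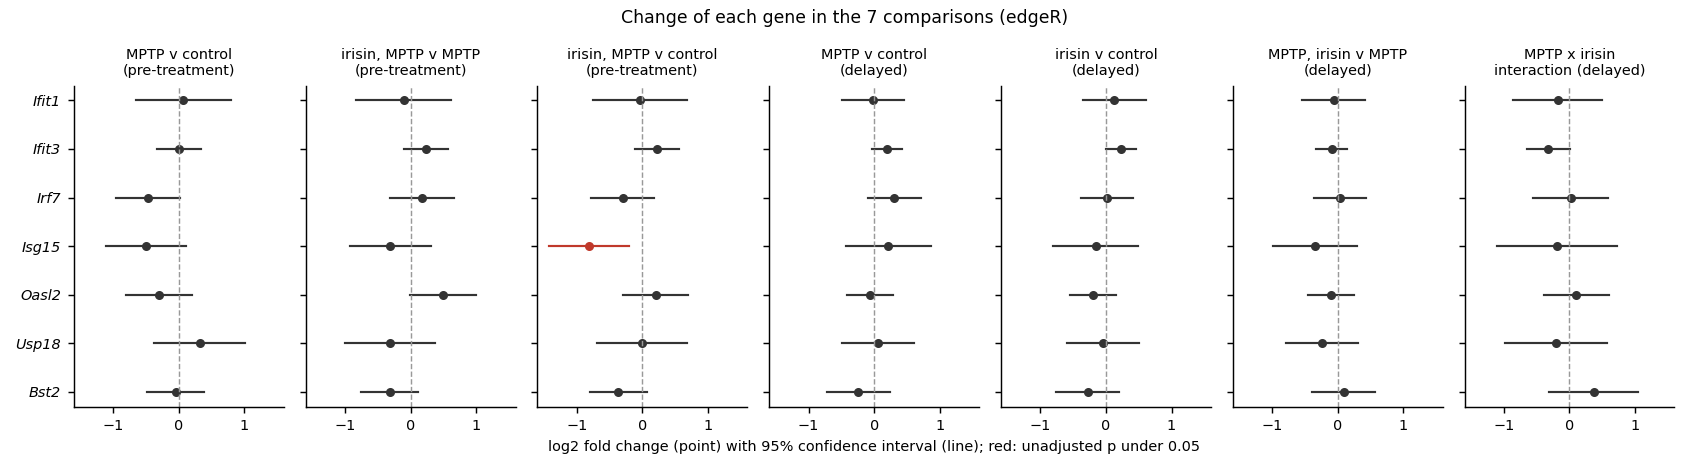
Log2 fold change of each gene (points) with its 95% confidence interval (lines) in the 6 comparisons between groups and in the interaction, from edgeR. Isg15 after irisin and MPTP against control, drawn in red, is the 1 test of 49 whose interval leaves out 0.

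MPTP against control was compared first, in each experiment. In the pre-treatment experiment 0 of 7 genes passed the adjusted test, where 0.0221% of 22641 genes did, and 0 of 7 passed unadjusted, where 6.03% of genes did. The median log2 fold change of the 7 was −0.05, against −0.00 over all genes, with 2 positive and 5 negative values between −0.51 (Isg15) and 0.32 (Usp18). In 2 genes, Irf7 and Isg15, all MPTP mice lay below all control mice, a separation seen in either direction in 11.6% of genes. Among delayed mice 0 of 7 passed the adjusted test (0.132% of 21922 genes) and 0 of 7 the unadjusted test (8.33%). The median was 0.06, with values from −0.24 (Bst2) to 0.31 (Irf7), and in 2 genes, Irf7 and Ifit3, all MPTP mice lay above all control mice (16.2% of genes in either direction).

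Irisin before MPTP was then set against MPTP alone and against control. Against MPTP, 0 of 7 genes passed the adjusted test (0.0707% of genes) and 0 of 7 the unadjusted test (6.22%), the median was −0.11, and Bst2 was the 1 gene without overlap between the groups (14.2% of genes). Against control, 0 of 7 passed the adjusted test (0.0707%), 1 of 7 the unadjusted test (7.12%), the median was −0.04, and Isg15 and Bst2 were below control in every mouse (13.6%). These comparisons share the mice pre-treated with irisin, and each shares a group with the comparison of MPTP and control.

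Irisin alone against control, in the delayed experiment, gave 0 of 7 genes by the adjusted test (0.109% of genes) and 0 of 7 by the unadjusted test (8.97%), a median of −0.04, and 1 gene, Ifit3, without overlap (15.1%). Irisin after MPTP against MPTP gave 0 of 7 (0.00456%) and 0 of 7 (3.9%), a median of −0.09, and no member without overlap, where 10.7% of genes showed none. The interaction, which asks whether irisin acted differently in MPTP-treated and untreated mice, gave 0 of 7 (0.0411%) and 0 of 7 (5.57%), with a median of −0.18 and values from −0.32 (Ifit3) to 0.37 (Bst2).

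**Figure D3:**
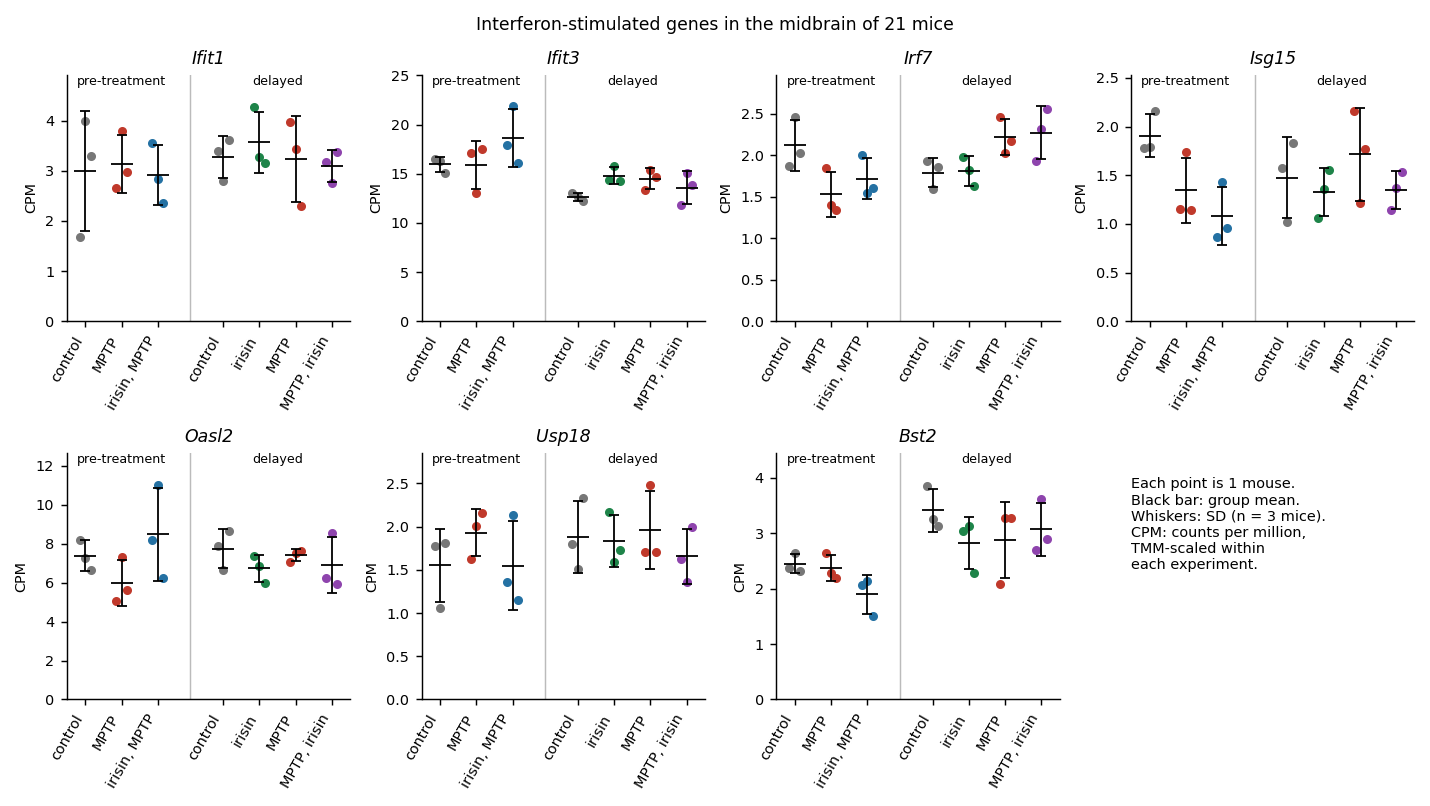
Scaled read counts (CPM) of the 7 genes in each of the 21 mice, with group means and SD (n = 3 mice), for the pre-treatment experiment (left of the grey line) and the delayed experiment (right). Values were scaled within each experiment, so levels are compared on the same side of the line. Isg15 averages 1.91 CPM in the control mice of the pre-treatment experiment and 1.08 CPM with irisin and MPTP, whereas Ifit1 and Usp18 overlap between all groups.

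Irf7, the transcription factor of the set, was lower with MPTP than in control in 1 experiment and higher in the other, and neither difference passed the test. In the pre-treatment experiment it was at 1.86, 2.46 and 2.03 CPM in control mice, at 1.84, 1.40 and 1.35 CPM in MPTP mice and at 2.002, 1.55 and 1.61 CPM after irisin and MPTP. All MPTP mice lay below control, the nearest by 1.84 to 1.86 CPM, and the mice pre-treated with irisin overlapped both groups. MPTP against control gave a log2 fold change of −0.47 (SE 0.21, edgeR unadjusted p = 0.0572, adjusted p = 0.823). After delayed treatment Irf7 was at 1.93, 1.59 and 1.85 CPM in control, 1.98, 1.82 and 1.63 CPM after irisin, 2.46, 2.03 and 2.17 CPM after MPTP and 1.93, 2.32 and 2.56 CPM after MPTP and irisin. Here all MPTP mice lay above control, and mice with delayed irisin covered the range of the MPTP mice. The log2 fold change of MPTP against control was 0.31 (SE 0.18, edgeR unadjusted p = 0.119, adjusted p = 0.708), that of delayed irisin against MPTP was 0.03 (SE 0.18), and that of irisin alone against control was 0.02 (SE 0.18). The 2 tables were fitted separately, and the difference between the experiments was not tested. Irf7 shares 45 bases with Phrf1 on the other strand, and the sources used here do not say whether counting used strand.

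Isg15, the ubiquitin-like modifier, was the member with the largest estimated change, and that change did not pass the adjusted test. It was at 1.78, 1.78 and 2.16 CPM in the control mice of the pre-treatment experiment, at 1.15, 1.73 and 1.15 CPM in MPTP mice and at 0.864, 1.43 and 0.962 CPM in mice given irisin before MPTP. The control mice were the highest 3 of the 9, and the 2 MPTP-treated groups overlapped. Against control, the log2 fold change was −0.81 (SE 0.27, edgeR unadjusted p = 0.0154, adjusted p = 0.573) with irisin before MPTP and −0.51 (SE 0.27, edgeR unadjusted p = 0.0949, adjusted p = 0.845) with MPTP alone, and between irisin before MPTP and MPTP it was −0.31 (SE 0.27). The first of these rests on 63 to 105 reads per mouse in the irisin group and 119 to 150 in control. Summed erythroid markers were also lower in these irisin-treated mice, at 231 to 455 CPM against 530 to 826 CPM in control. Summed markers of meninges and pericytes were at 258 to 268 CPM against 270 to 302 CPM, and summed microglial markers at 262 to 287 CPM against 285 to 324 CPM. The part of these markers in the value of Isg15 was not tested. Isg15 in the delayed experiment was at 1.57, 1.01 and 1.84 CPM in control, 1.06, 1.36 and 1.56 CPM after irisin, 2.16, 1.21 and 1.77 CPM after MPTP and 1.14, 1.37 and 1.53 CPM after MPTP and irisin. All 4 groups overlapped there, and the log2 fold change of MPTP against control was 0.22 (SE 0.29, edgeR adjusted p = 0.912).

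Usp18, the protease that takes Isg15 off its targets, varied more between mice than between groups. It ranged from 1.06 to 2.16 CPM in the pre-treatment experiment and from 1.35 to 2.47 CPM in the delayed experiment, and no 2 groups were without overlap. Its log2 fold changes between groups lay between −0.32 (irisin before MPTP against MPTP) and 0.32 (MPTP against control, pre-treatment experiment), with standard errors of 0.25 to 0.30. The interaction was −0.20 (SE 0.35). The antisense gene Gm44148 overlaps 15715 bases of Usp18 and held at most 0.311 CPM in any mouse. If counting did not use strand, reads from the pair cannot be told apart.

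Ifit3, a tetratricopeptide repeat protein that works with Ifit1 against viral RNA, was the most abundant member. In delayed mice it was at 13.1, 12.6 and 12.2 CPM in control, 14.4, 15.8 and 14.2 CPM after irisin, 13.3, 15.4 and 14.7 CPM after MPTP and 11.8, 15.1 and 13.9 CPM after MPTP and irisin. Every mouse given only irisin or only MPTP lay above every control mouse, and mice given both overlapped all 3 other groups. The log2 fold change against control was 0.23 for irisin (SE 0.11, edgeR unadjusted p = 0.0528, adjusted p = 0.554) and 0.20 for MPTP (SE 0.11, edgeR unadjusted p = 0.0883, adjusted p = 0.667), and the interaction was −0.32 (SE 0.15, edgeR unadjusted p = 0.0534, adjusted p = 0.893). Both differences from control share the same 3 control mice, and summed choroid plexus markers were at 259 to 1522 CPM in these control mice against 77.4 to 305 CPM after irisin and 44.6 to 1563 CPM after MPTP. Mice given only irisin also lay below all control mice in the summed markers of neurons (7237 to 7531 CPM against 7542 to 8019 CPM) and of dopaminergic neurons (633 to 641 CPM against 676 to 713 CPM), and the part of these markers in the values of Ifit3 was not tested. Without the mice at 1000 CPM or more, which leaves 1 control mouse, the log2 fold changes were 0.28 and 0.24. In the pre-treatment experiment Ifit3 was at 16.5, 16.3 and 15.1 CPM in control, 17.1, 13.1 and 17.5 CPM after MPTP and 18.0, 21.9 and 16.1 CPM after irisin and MPTP, with overlap between all 3 groups and a log2 fold change of MPTP against control of −0.00 (SE 0.15). Ifit3b is a near-identical copy of Ifit3, so reads may have been divided between the pair in counting and the level of Ifit3 is uncertain to that extent. Ifit3b was at 9.93 to 16.1 CPM in the pre-treatment experiment and 7.83 to 9.62 CPM in the delayed experiment.

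Ifit1, which binds viral RNA that lacks the cap methylation of the host, showed no separation between groups. Its lowest and highest values in the pre-treatment experiment were both in control mice, at 1.67 and 3.998 CPM, beside 2.65 to 3.78 CPM after MPTP and 2.35 to 3.55 CPM after irisin and MPTP. Among delayed mice it ranged from 2.29 CPM in an MPTP mouse to 4.26 CPM in an irisin mouse. Its log2 fold changes in the 6 comparisons between groups lay between −0.11 and 0.12, with standard errors of 0.22 to 0.32.

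Oasl2, a relative of the oligoadenylate synthetases, was at 8.22, 7.27 and 6.65 CPM in control, 5.08, 7.34 and 5.61 CPM after MPTP and 8.17, 11.01 and 6.26 CPM after irisin and MPTP in the pre-treatment experiment. The highest value was in a mouse with irisin and MPTP, and another mouse of that group overlapped the MPTP mice. Irisin before MPTP against MPTP gave a log2 fold change of 0.50 (SE 0.22, edgeR unadjusted p = 0.0526, adjusted p = 0.809), and that of MPTP against control was −0.30 (SE 0.22). The groups of the delayed experiment overlapped, between 5.95 and 8.64 CPM. The log2 fold changes between groups were from −0.20 to −0.06 there, and the interaction was 0.10 (SE 0.22).

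Bst2, also called tetherin, holds budding virus at the cell surface. It was at 2.37, 2.64 and 2.32 CPM in control mice of the pre-treatment experiment, at 2.63, 2.28 and 2.18 CPM after MPTP and at 2.06, 2.13 and 1.497 CPM after irisin and MPTP. The mice pre-treated with irisin were the lowest 3 of the 9. In the same 3 mice the summed erythroid markers (231 to 455 CPM) and those of meninges and pericytes (258 to 268 CPM) also lay below all MPTP mice (549 to 810 CPM and 272 to 283 CPM) and all control mice (530 to 826 CPM and 270 to 302 CPM), and their part in the values of Bst2 was not tested. The log2 fold change was −0.32 (SE 0.19, edgeR unadjusted p = 0.128, adjusted p = 0.924) against MPTP and −0.37 (SE 0.19, edgeR unadjusted p = 0.0873, adjusted p = 0.747) against control. Bst2 in the delayed experiment ranged from 2.08 to 3.85 CPM with overlap between all groups. Its log2 fold changes there were −0.28 for irisin alone against control (SE 0.22, edgeR adjusted p = 0.743), −0.24 for MPTP against control (SE 0.22) and 0.09 for irisin after MPTP against MPTP (SE 0.22), with an interaction of 0.37 (SE 0.31).

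The 7 genes did not move together from mouse to mouse. Over the 21 pairs of members, Pearson's r of log2 CPM had a median of 0.115 across the 9 mice of the pre-treatment experiment, from −0.669 (Irf7 and Usp18) to 0.550 (Isg15 and Bst2), and of 0.0575 across the 12 mice of the delayed experiment, from −0.351 to 0.585 (Oasl2 and Bst2). These values describe mice that share groups and library scaling. The mean of the 7 standardized values ranged from −0.979 to 0.570 in the mice pre-treated with irisin, which covers all other mice of that experiment. Among 21146 genes ranked by the smaller of their correlations with this mean in the 2 experiments, the 8 most alike were Gm12416, Gm8934, Gm21284, Furin, Tnfsf10, G630030J09Rik, H2-Q4 and Glipr2. High values of r follow from this choice of the top genes over 9 and 12 mice, so they describe the ranking only. Gm12416 reached r = 0.875 and 0.895, at no more than 0.664 CPM in any mouse. Tnfsf10, the death ligand TRAIL (r = 0.696 and 0.714), and H2-Q4, a class I histocompatibility gene (r = 0.669 and 0.675), were at 1.41 to 5.83 CPM and 2.52 to 6.53 CPM. Furin, a proprotein convertase (r = 0.805 and 0.704), was at 10.7 to 31.5 CPM.

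The rest of the interferon pathway was read from a list of 128 genes in 8 classes, of which 115 and 114 were tested. Of the 12 listed interferon genes, 4 were listed for the pre-treatment mice and all 12 for the delayed mice, and 0 passed the filter on low counts. The highest count of an interferon gene in any mouse was 7 and 6, and Ifnb1 and Ifng were at 0 reads in every mouse of the delayed experiment. Receptors and signal carriers, in contrast, were well above the filter. Ifnar1 was at 29.9 to 46.8 CPM and Ifnar2 at 13.6 to 21.2 CPM over both experiments.

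Stat2, which carries the signal to the nucleus, was at 12.1 to 15.4 CPM in the delayed experiment and spread from 13.7 to 29.7 CPM in the pre-treatment experiment, with 1 control mouse at 13.7 CPM and 1 mouse with irisin and MPTP at 14.6 CPM below the 7 others, which were at 21.7 CPM or more. Irf9, the DNA-binding part of the complex, was at 15.01, 15.1 and 16.9 CPM in control, 16.2, 16.3 and 15.2 CPM after MPTP and 9.28, 13.4 and 13.04 CPM after irisin and MPTP. The last group lay below both others in every mouse, with log2 fold changes of −0.42 against MPTP (SE 0.14, edgeR unadjusted p = 0.0164, adjusted p = 0.648) and −0.40 against control (SE 0.14, edgeR unadjusted p = 0.0205, adjusted p = 0.610). In these comparisons 14.2% and 13.6% of genes were without overlap, in either direction, and both share the mice pre-treated with irisin. These are the mice with the lower erythroid and meningeal markers described for Bst2, and the part of these markers in the values of Irf9 was not tested. Ifnar1 gave −0.29 against MPTP in the same mice (SE 0.13, edgeR unadjusted p = 0.0483, adjusted p = 0.799). Among delayed mice the log2 fold changes of Irf9, Stat2 and Ifnar2 lay between −0.14 and 0.15 in every comparison, the interaction included. Ifnar1 reached farther in these mice, at 0.18 for MPTP against control (SE 0.11), −0.23 for irisin after MPTP against MPTP (SE 0.11, edgeR unadjusted p = 0.0634, adjusted p = 0.9995) and −0.32 for the interaction (SE 0.16, edgeR unadjusted p = 0.0726, adjusted p = 0.908).

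Of the whole list, 1 gene passed the adjusted test in 1 comparison, and 0 of 115 or 114 passed in the 6 others. Over all tested genes, 0.109% passed in the former comparison and 0.00456% to 0.132% in the others. The exception was Aim2, a sensor of DNA in the cytosol, in irisin alone against control. Aim2 was at 1.53, 1.95 and 1.30 CPM in control mice of the delayed experiment, 5.31, 4.17 and 4.23 CPM after irisin, 4.03, 4.69 and 3.18 CPM after MPTP and 5.06, 3.65 and 5.14 CPM after MPTP and irisin. Every treated mouse lay above every control mouse, and the 3 treated groups overlapped each other. Of all genes, 15.1% were without overlap, in either direction, for irisin against control and 16.2% for MPTP against control. The share for all treated groups together was not computed. Against control the log2 fold change was 1.52 for irisin (SE 0.22, edgeR unadjusted p = 2.81e-05, adjusted p = 0.0308) and 1.31 for MPTP (SE 0.22, edgeR adjusted p = 0.0631), and the interaction was −1.30 (SE 0.31, edgeR adjusted p = 0.547). Both differences and the interaction share the same control mice, so they are not separate results. DESeq2 called both differences and the interaction (adjusted p = 7.66e-07 for irisin, 5.25e-05 for MPTP and 0.0477 for the interaction). Over all genes it called 144, 178 and 62 in the same order. The call for irisin was kept in 7 of 20 alternatives and lost in 13. It was lost with only the compared groups in the fit (edgeR adjusted p = 0.200), with a replicate block (edgeR adjusted p = 0.117), with limma on log2(FPKM + 1) and log2(FPKM + 0.1) (adjusted p = 0.0996 and 0.0526), without the mice with high choroid plexus markers (edgeR adjusted p = 0.107) and when any of 8 single mice was left out (control 1 or 3, irisin 1, 2 or 3, MPTP 1, MPTP and irisin 1 or 3), with edgeR adjusted p from 0.0506 to 0.161. In the pre-treatment experiment Aim2 was at 5.56 to 10.8 CPM in all 9 mice, control mice included, and its groups overlapped.

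**Figure D4:**
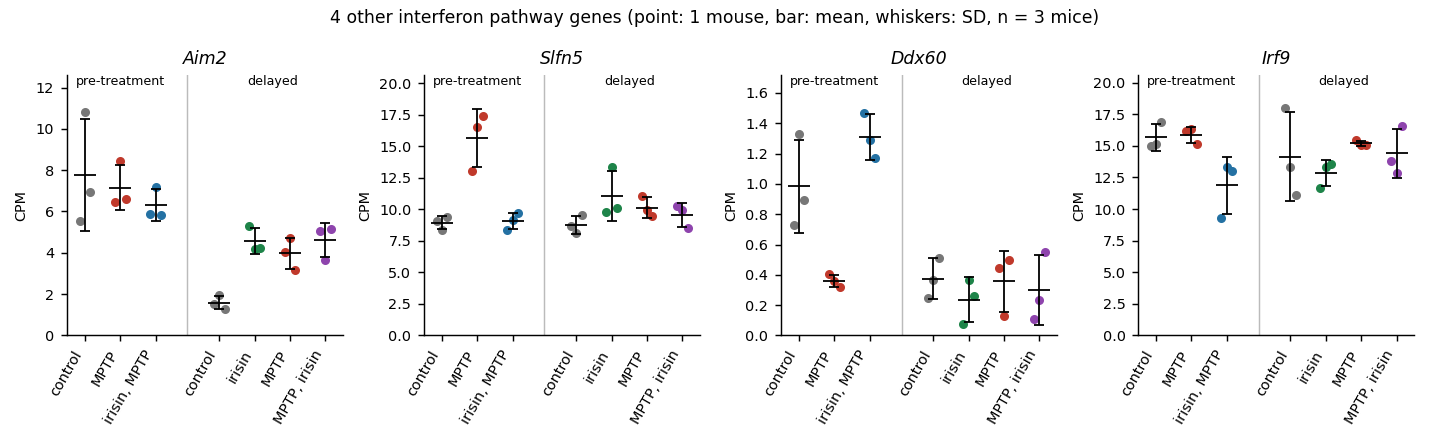
Scaled read counts (CPM) of Aim2, Slfn5, Ddx60 and Irf9 in each of the 21 mice, with group means and SD (n = 3 mice), for the pre-treatment experiment (left of the grey line) and the delayed experiment (right). The control mice of the delayed experiment are lowest for Aim2, and the MPTP mice of the pre-treatment experiment stand apart for Slfn5 and Ddx60.

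At an unadjusted p under 0.05, the list gave 9 of 115 genes (7.83%) for MPTP against control, 7 (6.09%) for irisin before MPTP against MPTP and 8 (6.96%) for irisin before MPTP against control, shares near those of all genes given above. Among delayed mice it gave 6 of 114 genes (5.26%) for MPTP against control, where 8.33% of all genes passed, and 16 (14.04%) for irisin alone against control, where 8.97% did. It gave 3 (2.63%) for irisin after MPTP against MPTP, beside 3.9% of all genes, and 6 (5.26%) for the interaction, beside 5.57%. The 16 genes for irisin alone were split into 8 above and 8 below control. The median log2 fold change of the list was −0.01, −0.07 and −0.08 in the pre-treatment comparisons and 0.06, −0.10, −0.05 and 0.05 in the delayed ones, in the same order.

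Among antiviral effectors, Slfn5, a Schlafen family gene, was at 9.07, 8.41 and 9.40 CPM in control, 13.04, 16.6 and 17.4 CPM after MPTP and 8.40, 9.13 and 9.68 CPM after irisin and MPTP in the pre-treatment experiment. The MPTP mice lay above all others, with a log2 fold change of 0.81 against control (SE 0.13, edgeR unadjusted p = 0.000161, adjusted p = 0.274) and of −0.79 for irisin before MPTP against MPTP (SE 0.13, edgeR unadjusted p = 0.000189, adjusted p = 0.107). Of all genes, 11.6% and 14.2% were without overlap, in either direction, in these comparisons. Ddx60, a putative RNA helicase, had the opposite order at a low level, with 0.731, 1.33 and 0.893 CPM in control, 0.403, 0.358 and 0.320 CPM after MPTP and 1.47, 1.29 and 1.17 CPM after irisin and MPTP. Its log2 fold changes were −1.45 (SE 0.29, edgeR adjusted p = 0.485) and 1.86 (SE 0.29, edgeR adjusted p = 0.0930). DESeq2 called both genes in both comparisons, with adjusted p from 7.77e-05 (Slfn5) to 0.0287 (Ddx60). Over all genes it called 91 for MPTP against control and 168 for irisin before MPTP against MPTP. These 2 genes share their MPTP mice between the comparisons, and in the delayed experiment Slfn5 was at 8.16 to 13.3 CPM and Ddx60 at 0.0761 to 0.553 CPM with overlap between MPTP and control. Slfn5 in mice given only irisin (9.78 to 13.3 CPM) lay above all delayed control mice (8.16 to 9.56 CPM), a separation seen in 15.1% of genes. Its log2 fold change there was 0.33 (SE 0.14, edgeR unadjusted p = 0.0355, adjusted p = 0.533). Oas1c, an oligoadenylate synthetase, gave −0.74 for irisin alone against control (SE 0.18, edgeR adjusted p = 0.295), and Ifi44 gave −0.73 for irisin after MPTP against MPTP (SE 0.31, edgeR adjusted p = 0.9995).

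Among sensors and adaptors beside Aim2, Adar, the enzyme that edits double-stranded RNA, was at 171, 191 and 165 CPM in control mice of the delayed experiment against 206, 242 and 247 CPM after irisin, 210, 217 and 204 CPM after MPTP and 217, 210 and 213 CPM after both. All treated mice lay above control, with log2 fold changes of 0.40 for irisin (SE 0.07, edgeR adjusted p = 0.111) and 0.26 for MPTP (SE 0.07, edgeR adjusted p = 0.370). Groups were without overlap, in either direction, in 15.1% of genes for irisin against control and 16.2% for MPTP against control. The share for all treated groups together was not computed. Both differences of Adar share the same control mice, as do those of Jak2 and Ifngr1 and their interactions given below. The kinase Ikbke gave −0.59 for irisin after MPTP against MPTP (SE 0.22, edgeR adjusted p = 0.9995). Of the signal carriers, Jak2 was higher in each singly treated group of the delayed experiment than in control (log2 fold changes 0.24 and 0.26, SE 0.10, neither passing) with an interaction of −0.41 (SE 0.15, edgeR adjusted p = 0.893), and Jak1 gave 0.12 for irisin (SE 0.05). The interferon-gamma receptor gene Ifngr1 gave −0.95 for irisin alone (SE 0.34, edgeR adjusted p = 0.498) and an interaction of 1.24 (SE 0.47, edgeR adjusted p = 0.893), but its mice fell near 8 or near 16 CPM in several groups, such as 18.1, 17.7 and 10.2 CPM in control. Ifngr2 gave −0.24 for irisin alone (SE 0.09). Ube2l6, which conjugates Isg15, gave −0.35 in that comparison (SE 0.14, edgeR adjusted p = 0.526).

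Genes induced by interferon-gamma and genes of antigen presentation (23 tested) were mostly on the negative side in the pre-treatment experiment, with 18 of 23 below 0 for MPTP against control, 16 of 23 for irisin before MPTP against MPTP and 18 of 23 for irisin before MPTP against control, where 50.4%, 49.3% and 49.2% of all genes were below 0. The whole list, this class included, had 62, 72 and 75 of 115 below 0 in the same order. For MPTP against control the other classes were mixed. Below 0 were 24 of 48 antiviral effectors, 8 of 17 sensors and adaptors and 3 of 12 kinases and transcription factors. The same held for 4 of 6 receptors, 2 of 3 genes of ISG15 conjugation and 3 of 6 feedback inhibitors. The pre-treatment comparisons share groups of mice. In none of them did any of the 23 interferon-gamma and antigen presentation genes pass the adjusted test. The immunity-related GTPases Igtp and Iigp1 gave −0.49 (SE 0.20) and −0.84 (SE 0.35) for MPTP against control, and Tgtp2 gave −1.10 for irisin before MPTP against control (SE 0.29, edgeR adjusted p = 0.421) and −0.78 against MPTP (SE 0.29). Ciita, the master regulator of class II genes, gave 0.84 and 0.63 in the same comparisons (SE 0.24, edgeR adjusted p = 0.478 and 0.727). Among delayed mice 16 of 23 were above 0 for MPTP against control and 17 of 23 below 0 for irisin alone against control (50.3% and 50.5% of all genes were below 0), and in the latter H2-D1, a class I gene, gave −0.26 (SE 0.10). For irisin after MPTP against MPTP, 16 of 23 were below 0, beside 50.05% of all genes. The whole list had 68 of 114 above 0 for MPTP, and 74 of 114 below 0 both for irisin alone and for irisin after MPTP. Of the feedback inhibitors (6 tested), Ptpn11 gave 0.20 for MPTP and 0.19 for irisin alone against control in the delayed experiment (SE 0.06, edgeR adjusted p = 0.403 and 0.470). Its interaction was −0.23 (SE 0.09), and these delayed values share the same control mice. Ptpn11 gave 0.20 for irisin before MPTP against control (SE 0.08). Socs3, the inhibitor of cytokine receptors, gave −0.99 for irisin before MPTP against control (SE 0.43, edgeR adjusted p = 0.699), Pias1 gave 0.15 for irisin alone (SE 0.07) and Ptpn2 gave 0.24 for irisin after MPTP against MPTP (SE 0.09).

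Summed markers of the other cell types in the tissue were compared with the members' groups. Microglial markers of the delayed mice were at 339 to 398 CPM, astrocyte markers at 4592 to 5144 CPM and endothelial markers at 529 to 636 CPM, with overlap between all 4 groups. In the pre-treatment experiment microglial markers were at 252 to 324 CPM, astrocyte markers at 3735 to 4447 CPM and endothelial markers at 381 to 457 CPM. Erythroid markers of the delayed mice were at 309 to 870 CPM. Markers of blood leukocytes, of which 4 and 5 of 12 had a mean of at least 0.5 CPM, summed to 6.98 to 11.5 CPM over both experiments, and mice with delayed irisin (8.92 to 11.5 CPM) lay above the MPTP mice (7.06 to 8.74 CPM). Markers of neurons (6344 to 7594 CPM) and oligodendrocytes (8002 to 13352 CPM) overlapped between all groups of the pre-treatment experiment, whereas erythroid markers and those of meninges and pericytes were lowest in the mice pre-treated with irisin, as given above. Dopaminergic markers were lower after MPTP than in control in the delayed experiment (463 to 587 CPM against 676 to 713 CPM) and overlapped in the pre-treatment experiment (541 to 861 CPM against 526 to 823 CPM). Mice given only irisin lay below all control mice in dopaminergic and in neuronal markers, as given for Ifit3. The part of these markers in the values of Irf7, Aim2 and Adar was not tested.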

How the data were processed

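RNA-seq was performed on the midbrain of 21 mice. Per the labels and the study's methods, RNA came from manually extracted nigral tissue of perfused mice and was sequenced on an Illumina NovaSeq. The authors counted reads per gene with featureCounts and deposited whole-number counts beside FPKM values, in 1 table per experiment, and how the FPKM values were made is not given in the sources used here beyond the submitters' processing notes, which name HISAT, StringTie, edgeR and the build mm9. The coordinates in the deposited tables equal those of GRCm38 for 91.9% and 86.9% of genes matched by ID to GENCODE M21, and this build was used. Isg15 has another start and end in the delayed table than in the other table.

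From the counts as deposited, genes were kept with edgeR 4.0.16 (filterByExpr, least count 10, least total 15), which left 22641 and 21922 genes, and scaled by TMM (factors 0.972 to 1.02). All groups of an experiment entered 1 quasi-likelihood fit, p-values were two-sided and adjusted by Benjamini-Hochberg over all tested genes, and an adjusted p under 0.05 was called. CPM values are relative to the tested genes of a library. Intervals are 95% confidence intervals of the fit. Scripts were tested on simulated data. Replicates are separate mice by their labels, and no 2 mice of a group had like counts (smallest chi-square per gene 36.9 over 21 pairs). Replicate numbers did not pair the mice.

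The members, the pathway list and the marker lists were chosen with earlier results of these data known. Named were the 7 members, Ifnar1, Ifnar2, Stat2 and Irf9 (1 further gene of this rule is not reported here), list genes past the adjusted threshold or among the 2 smallest unadjusted p-values under 0.05 of their class in a comparison, and the 8 genes most like the members' mean. Alternatives were median ratio scaling, other filters, only the compared groups, a replicate block, DESeq2 1.42.0, limma 3.58.1 on log2(FPKM + 1) and log2(FPKM + 0.1), an unadjusted threshold, leaving out each mouse and, added after seeing the data, leaving out mice with high choroid plexus markers. The depth of 48843585 to 77203445 counts per mouse leaves 53 or more reads on each member. The time from the last injection to tissue collection and the strandedness of counting are not given in the sources used here.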

Additional observations from a re-analysis of the deposited data

Results flagged for a closer look

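Irf7 was the 1 member whose MPTP mice all lay on opposite sides of their control mice in the 2 experiments. Among all tested genes, MPTP and control were without overlap in either direction for 11.6% (pre-treatment) and 16.2% (delayed). The share of genes separated in opposite directions was not computed, so this member is not set apart from other genes. Before delayed treatment was considered, the gap was thin, with the nearest pre-treatment mice at 1.84 CPM (MPTP) and 1.86 CPM (control). The log2 fold change of MPTP against control was −0.47 in the pre-treatment experiment, with all 3 MPTP mice below the control mice, and 0.31 in the delayed experiment, with all 3 above. Neither value passed the adjusted test in edgeR (adjusted p = 0.823 and 0.708), and the difference between the experiments was not tested, since the tables were fitted separately. The sign of each value was kept in every alternative that tested Irf7, with ranges of −0.63 to −0.14 and 0.11 to 0.37. The value of −0.14 is from limma on log2(FPKM + 1), which is another scale. With a mouse left out, edgeR gave −0.63 to −0.35 and 0.23 to 0.37. Irf7 was picked because its groups do not overlap, so a kept sign was close to given and is no support.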

How the results depend on the processing

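The count of members called was 0 in all 137 refits of the 7 comparisons and 1 (Isg15, irisin before MPTP against control, where 7.12% of genes passed) at an unadjusted p under 0.05, and the lowest adjusted p of a member in any refit was 0.331 (the same value of Isg15, DESeq2). The main fits called 0.00456% to 0.132% of all genes, so a count of 0 among 7 genes was nearly given and says little about stability. The filter on a mean FPKM of at least 1 kept 5 members in the pre-treatment and 4 in the delayed experiment, so Irf7 and Usp18 have no value under it in either experiment and Oasl2 has none in the delayed experiment. Replicate numbers did not pair the mice (correlation of same-numbered mice −0.0776 to 0.101 in the pre-treatment and −0.0765 to 0.0387 in the delayed experiment), and with a replicate block the genes called over all tested genes went from 5, 16 and 16 to 2, 8 and 2 and from 29, 24, 1 and 9 to 17, 14, 1 and 7. DESeq2 called 91, 168, 191, 178, 144, 34 and 62 genes in the same order, so the background shares depend on the tool. Leaving out MPTP mouse 2 of the pre-treatment experiment, the mouse with high choroid plexus markers, gave 17 and 26 called genes in place of 5 and 16. Of 941 refits of member log2 fold changes, 881 kept the sign and 60 had the other sign, none of which passed the test.

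Log2 fold changes whose sign turned when a mouse was left out had these ranges. For MPTP against control in the pre-treatment experiment they were −0.23 to 0.34 (Ifit1), −0.088 to 0.12 (Ifit3) and −0.14 to 0.012 (Bst2). For irisin before MPTP the range was −0.27 to 0.045 against MPTP (Ifit1) and −0.33 to 0.23 (Ifit1), −0.039 to 0.38 (Oasl2) and −0.31 to 0.17 (Usp18) against control. For MPTP against control in the delayed experiment they were −0.19 to 0.17 (Ifit1), −0.16 to 0.025 (Oasl2) and −0.14 to 0.24 (Usp18). For irisin alone they were −0.025 to 0.20 (Ifit1), −0.061 to 0.087 (Irf7), −0.36 to 0.039 (Isg15) and −0.18 to 0.14 (Usp18). For irisin after MPTP they were −0.25 to 0.12 (Ifit1), −0.059 to 0.14 (Irf7), −0.28 to 0.0040 (Oasl2) and −0.094 to 0.20 (Bst2), and for the interaction −0.076 to 0.12 (Irf7), −0.39 to 0.017 (Isg15), −0.079 to 0.20 (Oasl2) and −0.39 to 0.0030 (Usp18). Without the mice with high choroid plexus markers, the sign of some members turned as well. For MPTP against control in the pre-treatment experiment it turned to −0.086 (Ifit1) and 0.12 (Ifit3). For MPTP against control in the delayed experiment it turned to 0.033 (Ifit1), −0.12 (Isg15) and −0.16 (Usp18). For irisin before MPTP against MPTP it turned to 0.045 (Ifit1). For irisin alone it turned to −0.022 (Ifit1) and −0.035 (Irf7), and for the interaction to 0.13 (Isg15) and 0.14 (Usp18). Ifit1 for irisin before MPTP against control was 0.026 with the replicate block and 0.025 with limma on log2(FPKM + 0.1), and the interaction of Irf7 was −0.0051 with all genes of any count, −0.0082 with limma on log2(FPKM + 1) and −0.026 on log2(FPKM + 0.1). The cause of these turns was not tested. With 3 mice a group and as few as 53 reads on a member, the value farthest from 0 in a comparison of groups, −0.81 (Isg15), had a 95% interval of −1.43 to −0.20 and was not called.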
